A study of Homo sapiens with 6 samples.

Results

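Secreted antagonists of WNT and BMP signalling, 10 genes in all, were followed in MDA-MB-231 cells, a triple-negative breast cancer line, after treatment with guadecitabine. The 10 genes are SOST, SFRP1, SFRP2, WIF1, DKK1 and DKK3, which act on WNT signalling, and GREM1, NOG, CHRD and FST, which act on BMP or activin signalling. They were taken by gene symbol from the 17100 genes of the count table, and all 10 were found. Of these, 7 had enough reads to be fitted and 3 (SFRP2, WIF1 and CHRD) did not. The names were picked with their response to the drug already in view, so that the change of each of these 10 genes is a description and carries no p-value.

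Guadecitabine (SGI-110) is a dinucleotide prodrug that releases decitabine, which is built into DNA and traps DNA methyltransferases, so that methylation is lost as cells divide. The study treated the cells with 1 µM guadecitabine for 96 h and then left them 24 h without drug, and 3 libraries came from treated cells and 3 from cells given vehicle. Both groups are the same cell line, no engineered allele is named for either, and the labels name no other agent. Purified RNA came from 3 independent experiments, and every value below rests on 1 line with no second line beside it. The comparison asks which genes change their RNA level when methyltransferase activity is blocked.

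WNT proteins bind Frizzled receptors together with LRP5 or LRP6 on the cell surface and thereby stabilise beta-catenin. Sclerostin (SOST) and the Dickkopf protein DKK1 occupy LRP5 and LRP6, whereas secreted Frizzled-related proteins (SFRP1, SFRP2) and WIF1 bind the WNT ligands themselves. BMPs and activins bind pairs of serine/threonine kinase receptors that phosphorylate SMAD proteins. Gremlin (GREM1), noggin (NOG) and chordin (CHRD) hold BMPs away from these receptors, and follistatin (FST) mainly holds activins. In breast and other carcinomas, SFRP, WIF1 and DKK genes are known as genes whose promoters often carry methylated CpG sites, and SOST is otherwise known as a product of osteocytes in bone.

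The promoters of the members differ widely in CpG, the dinucleotide that DNA methyltransferases act on. The 250 bases before the transcription start are shown for SOST, GREM1 and DKK1, the genes with a low-CpG promoter and a large rise, a CpG-dense promoter and a large rise, and a high level with no change, respectively. The sequences are those of RefSeq and were found once each around their own genes in the GRCh37 (hg19) build, and capitals mark each CpG. The rest of the build was not searched. They read 5′ to 3′ in the direction of transcription, and hold 6, 32 and 18 CpG sites in this order. The SOST stretch is chr17:41836160-41836409 on the minus strand, that of GREM1 chr15:33009955-33010204 on the plus strand, and that of DKK1 chr10:54073791-54074040 on the plus strand.
SOST: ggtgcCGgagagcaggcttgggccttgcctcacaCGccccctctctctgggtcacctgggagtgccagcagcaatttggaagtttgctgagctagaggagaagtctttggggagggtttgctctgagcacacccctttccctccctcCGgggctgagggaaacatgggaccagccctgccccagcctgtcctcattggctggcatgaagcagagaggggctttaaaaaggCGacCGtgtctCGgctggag
GREM1: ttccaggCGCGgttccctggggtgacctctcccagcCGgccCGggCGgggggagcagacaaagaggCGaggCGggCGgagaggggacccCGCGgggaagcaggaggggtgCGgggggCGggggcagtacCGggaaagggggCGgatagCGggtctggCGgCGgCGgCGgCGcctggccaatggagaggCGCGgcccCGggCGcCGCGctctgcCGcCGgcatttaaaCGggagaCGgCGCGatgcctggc
DKK1: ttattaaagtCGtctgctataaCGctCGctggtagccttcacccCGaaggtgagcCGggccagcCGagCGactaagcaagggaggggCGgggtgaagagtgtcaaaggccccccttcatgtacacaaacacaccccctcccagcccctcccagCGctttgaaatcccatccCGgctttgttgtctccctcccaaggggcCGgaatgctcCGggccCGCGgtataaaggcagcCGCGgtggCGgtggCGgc

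Counted over windows of 300 bases, from 250 before to 50 after the RefSeq start, 7 members could be matched and 12821 promoters of genes in the table served as the comparison. These promoters held a median of 24 CpG sites and a median observed-to-expected CpG ratio of 0.80. SOST had 7 CpG sites, with a ratio of 0.25, and only 15.8% of promoters held fewer. GREM1 had 42, with 91.4% of promoters holding fewer. SFRP2 had 15, DKK1 20, WIF1 29, FST 32 and CHRD 36. For WIF1 and FST, however, the RefSeq start lay 261 and 195 bp downstream of the start in the deposited annotation. The window of WIF1 thus lay inside the deposited gene and that of FST mostly so. Their CpG and motif values do not describe the sequence before the deposited start. SOST and GREM1, whose RNA levels rose the most, thus had the lowest and the highest CpG count of the 7 matched members. DKK3 and SFRP1, which had the next largest rises, had no matched promoter. Methylation itself was not measured in these libraries.

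Exact matches of 3 promoter motifs were searched on both strands in the same windows. TATAAA, the core of the TATA box, was present in DKK1 and in none of the other 6 matched members. It was present in 7.65% of the 12821 promoters of genes in the table. GGGCGG, the core of the GC box, was present in SFRP2, WIF1, DKK1, GREM1, CHRD and FST but had no match in SOST, beside 63.8% of these 12821 promoters. CCAAT was found in SOST, SFRP2, GREM1 and FST, beside 36.1%. No promoter was matched for SFRP1, DKK3 and NOG.

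In the deposited annotation, on hg19, SOST (NM_025237) lies at chr17:41831099-41836156 on the minus strand, with 2300 bases of counted exon. DKK1 lies at chr10:54074041-54077417 and GREM1 at chr15:33010205-33026870, both on the plus strand, NOG at chr17:54671060-54672951 and FST at chr5:52776264-52782304, also on the plus strand. DKK3 lies at chr11:11984543-12030917 on the minus strand. SFRP2 lies at chr4:154701742-154710228 and WIF1 at chr12:65444404-65515346 on the minus strand, and CHRD at chr3:184097861-184107623 on the plus strand. SFRP1 is on chromosome 8. DKK1, GREM1 and CHRD each overlap a gene on the opposite strand, PRKG1-AS1, GREM1-AS1 and THPO respectively. WIF1 overlaps a lncRNA gene and a small RNA gene on the opposite strand, and SFRP1 overlaps a small RNA gene and a processed pseudogene there. The strand setting of the counting is not given in the sources used here, so that reads of such pairs cannot be told apart.

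The libraries held from 8792127 to 22277442 counts, and the shallowest was guadecitabine replicate 2. Normalised counts below are counts scaled by edgeR's TMM factors to the mean library total of 17911210. One library stood apart before any comparison. Vehicle replicate 3 had 20 genes without a read, against 2498 and 2517 in vehicle replicates 1 and 2 and 1593 to 2090 in the guadecitabine libraries. Over the 2782 genes with at most 1 count in both of the other vehicle libraries, it held a median of 7.78 counts per kb of exon, with a 10th to 90th percentile of 3.91 to 16.6. Results on members with few vehicle reads are therefore also given without it. The 8 genes listed as expressed by MDA-MB-231 were detected in every library. Of the 8 listed as lacking, ESR1 and PGR had at most 1 count in every library but vehicle replicate 3, whereas ERBB2, GATA3 and EPCAM were detected in all libraries. The others on this list were FOXA1, CDH1 and KRT5. Only 2 of the 8 were at or under 3 counts in every guadecitabine library. In the fit described next, 4 of the 8 were fitted, with 1 called higher and 3 called lower after guadecitabine.

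Across all genes, edgeR's quasi-likelihood test called 5022 of 13322 genes at an adjusted p of 0.05, which is 37.7%, with 2576 higher (19.3%) and 2446 lower (18.4%) after guadecitabine. Among the 7 fitted members, 5 were called higher (SOST, SFRP1, DKK3, GREM1 and FST), 1 was called lower (NOG) and DKK1 was not called. All 3 guadecitabine libraries lay above all 3 vehicle libraries in 5 members, where 26.7% of all genes did so, and below them in 1 member, where 24.9% of all genes did so. Since the names were chosen from this same contrast, nothing is read from these counts. GREM1 passed the filter on low counts through the guadecitabine libraries alone, and so had to differ. In bulk RNA, fewer cells that express a gene and less RNA per cell cannot be told apart.

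**Figure D1:**
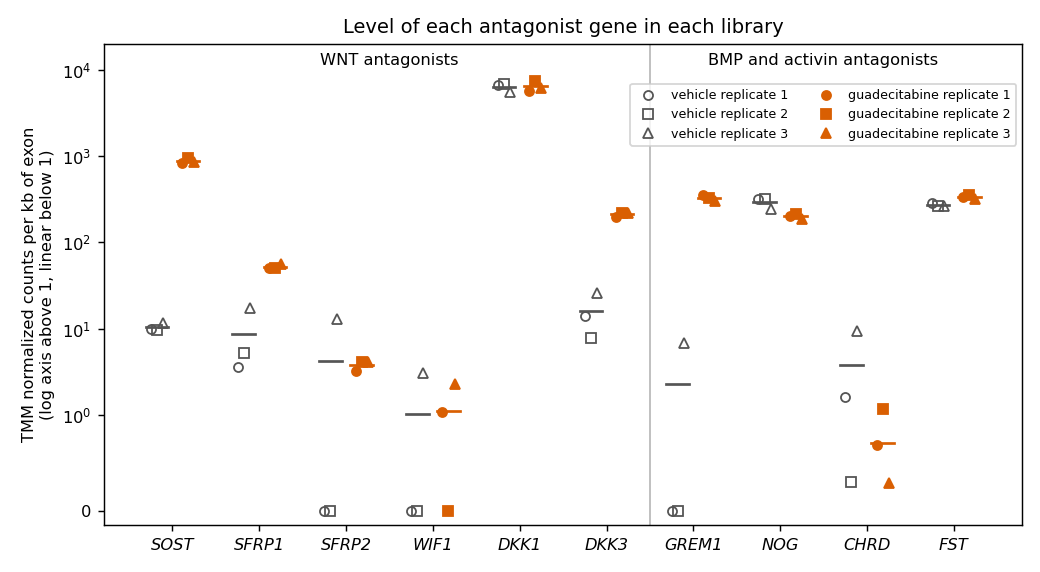
Level of each antagonist gene in each library, as TMM normalised counts per kb of counted exon, on an axis that is logarithmic above 1 and linear below. Open symbols are vehicle libraries, filled symbols guadecitabine libraries, and bars group means. DKK1 has a mean of 6391 in vehicle and 6429 in guadecitabine libraries, SOST moves from about 10.4 to 875, and for SFRP2, WIF1, GREM1 and CHRD the highest vehicle symbol is the triangle of replicate 3.

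SOST encodes sclerostin, which binds LRP5 and LRP6 and thereby blocks WNT signalling. It had 24, 21 and 35 counts in vehicle replicates 1 to 3 and 2343, 1067 and 1952 in guadecitabine replicates 1 to 3. Scaled for depth, these were 22.9, 22.2 and 26.9 normalised counts in vehicle and 1896, 2171 and 1970 in guadecitabine. The 3 treated libraries lay close together and far above all vehicle libraries, and vehicle replicate 3 was only slightly above the others. Mean levels were 24.0 ± 2.56 and 2012 ± 142 normalised counts (SD, n = 3 each), a log2 fold change of 6.37 ± 0.147 (SE) or 82.6-fold. Without vehicle replicate 3 the log2 fold change was 6.47. Among all genes of the table, ranked by level per kb, SOST moved from a mean percentile of 29.6 to 88.0.

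Markers of bone cells, from which SOST is known, were read beside this rise. Summed over 9 osteoblast and osteocyte genes, the level per kb was 267 to 364 in vehicle and 141 to 186 in guadecitabine libraries. SP7, DMP1, MEPE and IBSP, which define osteoblasts and osteocytes, were at or under the floor of 3 counts in every guadecitabine library. RUNX2, the early osteoblast factor, fell by 0.67 on the log2 scale (adjusted p = 0.00222). SPP1 (osteopontin) rose from 0, 0 and 4.61 normalised counts to 26.7, 26.4 and 14.1 (log2 fold change 3.60, adjusted p = 0.0226), a call that was lost with any library but vehicle replicate 3 left out (3.09 to 3.88). Without that library its fitted log2 fold change was 7.39, which depends on the prior count since no other vehicle library had a read. Like GREM1, SPP1 passed the filter on low counts only through the guadecitabine libraries, so its call is a description and no test. Of the 4 bone markers fitted, SPP1 was higher, RUNX2 lower, and BGLAP and PHEX were not called.

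DKK3, a Dickkopf protein whose part in WNT signalling is less clear than that of DKK1, had 40, 20 and 93 counts in vehicle and 671, 296 and 589 in guadecitabine libraries. The corresponding normalised counts were 38.1, 21.1 and 71.5 against 543, 602 and 594. The groups did not overlap, and vehicle replicate 3 was the highest of the vehicle libraries. Means were 43.6 ± 25.6 and 580 ± 32.1 normalised counts (SD, n = 3 each), a log2 fold change of 3.68 ± 0.317 (SE) or 12.8-fold. It was 4.27 without vehicle replicate 3, and 3.38 to 3.72 with any of the other 5 libraries left out.

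SFRP1, the best known of the secreted Frizzled-related proteins, had 17, 22 and 100 counts in vehicle and 275, 111 and 251 in guadecitabine libraries. The normalised counts were 16.2, 23.2 and 76.9 in vehicle and 223, 226 and 253 in guadecitabine. Again the groups did not overlap, although vehicle replicate 3 stood between the other vehicle libraries and the treated ones. The log2 fold change was 2.54 ± 0.460 (SE), or 5.83-fold, on means of 38.8 ± 33.2 and 234 ± 16.9 normalised counts (SD, n = 3 each). Against vehicle replicates 1 and 2 alone it was 3.57.

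DKK1 had the highest level per kb of all members in both groups. It had 12776, 11686 and 13149 counts in vehicle and 12594, 6599 and 11094 in guadecitabine libraries, or 12164, 12336 and 10107 against 10192, 13424 and 11195 normalised counts. The groups overlapped, with the lowest value in a vehicle library and the highest in guadecitabine replicate 2. Means were 11536 ± 1240 and 11604 ± 1654 normalised counts (SD, n = 3 each), and the log2 fold change was 0.01 ± 0.129 (SE). With each library left out in turn it ran from -0.11 to 0.09. RNA of DKK1, the Dickkopf protein that binds LRP5 and LRP6, was thus abundant in both groups, and no change was detectable beyond the spread between libraries.

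SFRP2 and WIF1, both WNT-binding proteins, stayed at few reads. SFRP2 had 0, 0 and 33 counts in vehicle and 8, 4 and 8 in guadecitabine libraries. WIF1 had 0, 0 and 9 counts in vehicle and 3, 0 and 5 in guadecitabine. For both genes the highest value was in vehicle replicate 3, and the guadecitabine libraries of SFRP2 were above the other vehicle libraries and above the floor of 3 counts. Neither gene was fitted, and the floor covers counting error only.

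GREM1 encodes gremlin, which binds BMP2, BMP4 and BMP7. It had 0, 0 and 35 counts in vehicle and 1753, 634 and 1182 in guadecitabine libraries. The normalised counts were 0, 0 and 26.9 in vehicle and 1419, 1290 and 1193 in guadecitabine. Every treated library was thus far above every vehicle library, and no read was found in vehicle replicates 1 and 2. The mean in guadecitabine was 1300 ± 113 normalised counts (SD, n = 3), and with all 6 libraries the log2 fold change was 6.96 ± 0.611 (SE). This value is set by vehicle replicate 3, and without it the fitted log2 fold change was 13.26, which depends on the prior count and is no measure of size. Measured against a floor of 3 counts per library in vehicle replicates 1 and 2 alone, the guadecitabine mean of GREM1 was at least 432-fold higher. In the fit of all 6 libraries, with the reads of vehicle replicate 3, it was 124-fold higher.

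NOG, encoding noggin, moved the other way. It had 626, 577 and 596 counts in vehicle and 469, 200 and 346 in guadecitabine libraries, or 596, 609 and 458 against 380, 407 and 349 normalised counts. All treated libraries were below all vehicle libraries, by a small margin to vehicle replicate 3. The log2 fold change was -0.55 ± 0.136 (SE), a ratio of 0.681. The direction held with every library left out, but NOG was not past the threshold without vehicle replicate 1 (-0.50), vehicle replicate 2 (-0.48) or guadecitabine replicate 3 (-0.50). Since NOG was chosen from this same contrast, its call is a description and no test of the fall.

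FST, encoding follistatin, had 628, 526 and 722 counts in vehicle and 874, 363 and 669 in guadecitabine libraries. The normalised counts were 598, 555 and 555 in vehicle and 707, 738 and 675 in guadecitabine. The groups did not overlap, but the rise was small, with means of 569 ± 24.7 and 707 ± 31.7 (SD, n = 3 each) and a log2 fold change of 0.31 ± 0.0990 (SE). FST was past the threshold in the fit of all 6 libraries and lost its call without vehicle replicate 1 (0.35), 2 (0.29) or 3 (0.29), without guadecitabine replicate 2 (0.28) or 3 (0.34), and with the replicate number as a block (0.31).

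CHRD, encoding chordin, had 6, 1 and 43 counts in vehicle and 3, 2 and 1 in guadecitabine libraries. It was not fitted, and vehicle replicate 3 alone held more reads than the other 5 libraries together. No direction can be given for CHRD at this depth.

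**Figure D2:**
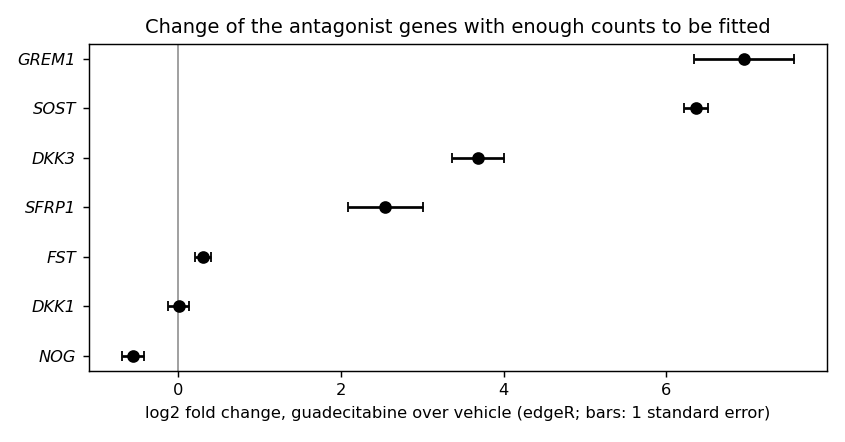
Log2 fold change of the 7 fitted antagonist genes, guadecitabine over vehicle, from the edgeR fit across all genes, with bars of 1 standard error. GREM1 and SOST lie above 6, DKK3 and SFRP1 between 2 and 4, and FST, DKK1 and NOG within 1 of zero.

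The low members were set beside the reads that vehicle replicate 3 held on silent genes. At the median of 7.78 counts per kb, the exon length of GREM1 would carry 30.8 counts in that library, and 35 were found. CHRD would carry 27.4 and had 43, SFRP2 would carry 15.5 and had 33, and WIF1 would carry 17.4 and had 9. The 35 reads of SOST stood beside 17.9 from this background, although the gene also had 24 and 21 counts in the other vehicle libraries. SFRP1 and DKK3 were above it, with 100 counts beside 34.7 and 93 beside 21.4. Per kb they held 22.4 and 33.9 counts, both over the 90th percentile of the silent genes, while SFRP2 was at it and GREM1, WIF1, CHRD and SOST were inside the range. With this background subtracted from vehicle replicate 3, the log2 fold change was 6.68 for SOST, 3.84 for DKK3, 2.88 for SFRP1 and 9.89 for GREM1. The source of these reads was not tested.

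**Figure D3:**
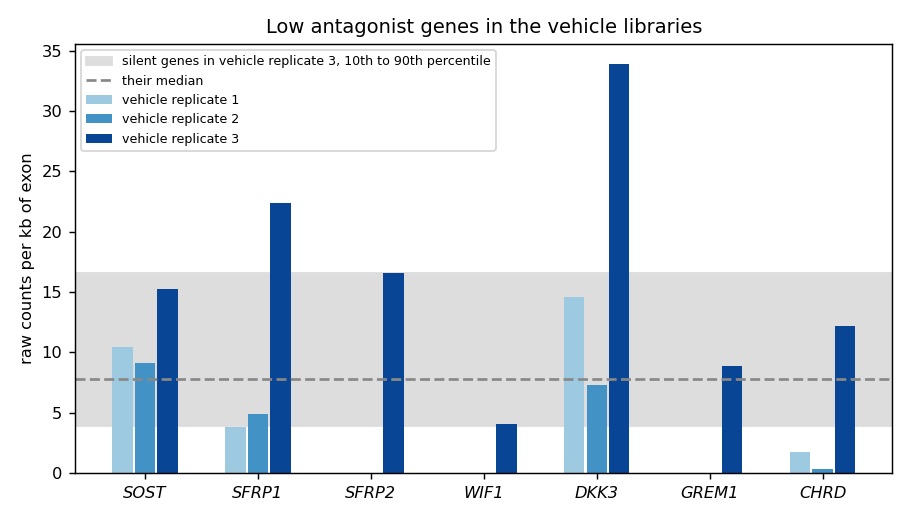
Raw counts per kb of counted exon of the 7 low antagonist genes in the 3 vehicle libraries. The grey band spans the 10th to 90th percentile (3.91 to 16.6) and the dashed line the median (7.78) of 2782 silent genes in vehicle replicate 3. DKK3 and SFRP1 rise above the band in that library, and GREM1 lies near the median.

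Levels were then compared between members per kb of exon. In vehicle cells DKK1 led with 6391 ± 687 normalised counts per kb (SD, n = 3). NOG (293 ± 44.2) and FST (271 ± 11.8) followed and overlapped each other, and the other 7 members were at 15.9 or less, each overlapping with its neighbour in the order. After guadecitabine the order was DKK1 (6429 ± 917), SOST (875 ± 61.8), FST (337 ± 15.1), GREM1 (329 ± 28.7), DKK3 (211 ± 11.7), NOG (200 ± 15.3) and SFRP1 (52.4 ± 3.78 normalised counts per kb). FST and GREM1 overlapped, as did DKK3 and NOG, whereas the other neighbours among these 7 did not.

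In shares of the summed level per kb, DKK1 made up 91.2% ± 0.727 of the 10 members in vehicle and 76.0% ± 1.89 in guadecitabine libraries (SD, n = 3 each). The share of SOST went from 0.151% ± 0.0329 to 10.4% ± 0.477. Without DKK1, the sum was 611 ± 17.8 normalised counts per kb in vehicle and 2010 ± 89.6 after guadecitabine. In that sum NOG and FST held 92.3% in vehicle and 26.7% after guadecitabine, and SOST alone went from 1.71% to 43.5%. The 4 BMP and activin antagonists summed to 570 ± 41.9 and 867 ± 50.5 normalised counts per kb. The 6 WNT antagonists, mostly DKK1, summed to 6431 ± 661 and 7572 ± 987, which overlapped between the groups.

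The nearest fitted gene on each side of every member was read from the same fit, a choice made after the fit had been seen. Of these 20 neighbours, 3 were higher, 2 were lower and 15 were not past the threshold, beside 19.3% higher and 18.4% lower over all genes. SCG5, which encodes the neuroendocrine chaperone 7B2, lies 20907 bp from GREM1. It had 14, 14 and 32 counts in vehicle and 319, 128 and 234 in guadecitabine libraries, a log2 fold change of 3.80 ± 0.248 (SE, adjusted p = 6.94e-06). FMN1, on the other side of GREM1 at 30875 bp, had a log2 fold change of 0.21 and was not called (adjusted p = 0.476), but passed the threshold without vehicle replicate 3 (0.49). The neighbours of SOST changed little. DUSP3, at 7333 bp, rose by 0.31 on the log2 scale (adjusted p = 0.0321) but was not called without vehicle replicate 1 (0.30) or 2 (0.28) or guadecitabine replicate 2 (0.31) or 3 (0.30), nor with the replicate number as a block (0.31). ETV4, on the other side, was not called (log2 fold change 0.14, adjusted p = 0.407). Beside DKK3, USP47 had a log2 fold change of 0.23 and was not called (adjusted p = 0.333), and MICAL2 fell by 0.73 on the log2 scale (adjusted p = 0.000531). TLR2, beside SFRP2, rose by 1.29 (adjusted p = 0.000315) and NDUFS4, beside FST, fell by 0.48 on the log2 scale (adjusted p = 0.0118), not called without vehicle replicate 1 (-0.42). The neighbours of DKK1, NOG, SFRP1, WIF1 and CHRD were not past the threshold on either side.

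The other genes of both pathways were then read from whole lists. Their 10 lists held 179 genes of the table, of which 122 were fitted, 18 were higher and 31 lower, or 26 higher and 31 lower without vehicle replicate 3. A further 57 had too few reads, and 53 of those had their highest value in vehicle replicate 3. Over all 13322 fitted genes, 19.3% were higher and 18.4% lower. Without vehicle replicate 3, 3002 of 13296 genes were higher and 2575 lower. Every list count below stands beside these shares, and no list was tested as a set. Adjusted p-values below are those of edgeR's quasi-likelihood test over all 13322 genes, whose median log2 fold change was 0.02.

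**Figure D4:**
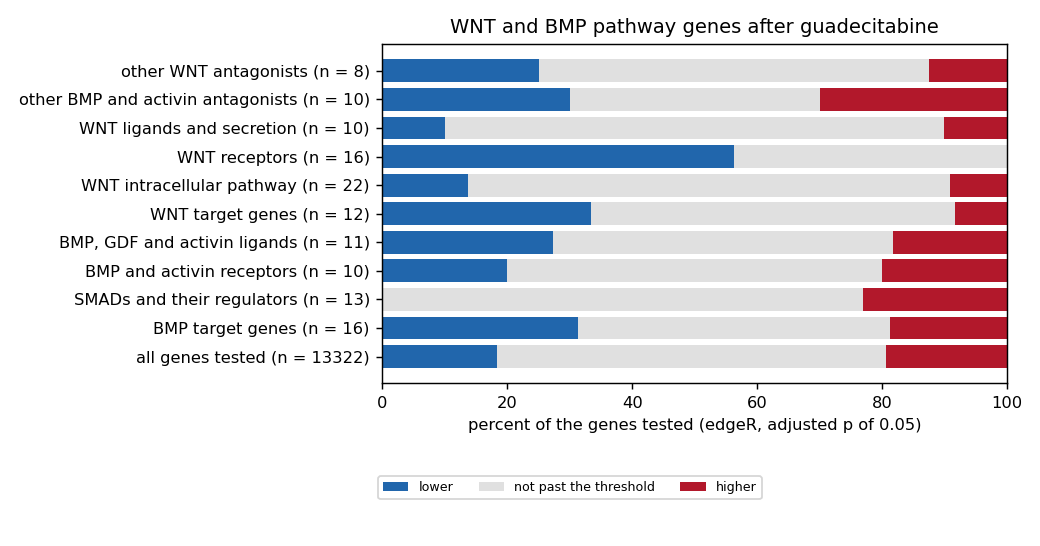
Percent of the fitted genes of each WNT or BMP pathway list that were lower, not past the threshold or higher after guadecitabine, with all 13322 fitted genes in the bottom bar. With all 6 libraries, among WNT receptors 9 of 16 were lower and none higher, beside 18.4% lower and 19.3% higher over all genes.

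Other WNT antagonists included 8 fitted genes, of which 1 was higher and 2 were lower, with a median log2 fold change of 0.39, and 3 were higher and 2 lower without vehicle replicate 3. IGFBP4, an IGF-binding protein that also binds LRP6 and Frizzled, fell from 54171, 46961 and 35210 to 11039, 14913 and 12457 normalised counts, a log2 fold change of -1.83 ± 0.171 (SE, adjusted p = 5.95e-05). ZNRF3, the ubiquitin ligase that removes Frizzled from the surface, fell by 0.56 on the log2 scale (adjusted p = 0.0203) and TPBG, a membrane inhibitor of LRP6, rose by 0.38 (adjusted p = 0.0161). Both of these small changes depended on which libraries were kept. TPBG lost its call without vehicle replicate 1 (0.39) or 2 (0.36), and ZNRF3 without vehicle replicate 1 (-0.48) or 2 (-0.58) or guadecitabine replicate 3 (-0.49). DKK2, SFRP4, SFRP5 and APCDD1 had almost no reads outside vehicle replicate 3.

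Among genes for WNT ligands and their secretion, 13 of 23 had too few reads to be fitted. Of the 10 fitted genes, 1 was higher and 1 lower, and the median log2 fold change was -0.10. With vehicle replicate 3 left out, 2 were higher and 1 lower. WNT10A rose from 27.6, 25.3 and 48.4 to 108, 159 and 130 normalised counts, a log2 fold change of 1.93 ± 0.313 (SE, adjusted p = 0.00138). WLS, which carries WNT proteins to the surface, fell by 0.57 on the log2 scale (adjusted p = 0.00371). WNT7B and WNT5B, both detected in every library, had log2 fold changes of 0.03 and 0.00 and were not called (adjusted p = 0.901 and 0.993). They were named after their values were seen.

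Of 16 fitted WNT receptor genes, 9 were lower and 0 higher after guadecitabine, and the median log2 fold change was -0.41. Without vehicle replicate 3, 7 were lower and 2 higher, with the same median to 2 decimals. LRP5, the co-receptor that SOST and DKK1 bind, fell from 6604, 7046 and 5404 to 2226, 2659 and 2360 normalised counts, a log2 fold change of -1.40 ± 0.128 (SE, adjusted p = 5.23e-05). LRP6, its close relative and named for that after its value was seen, fell by 0.40 (adjusted p = 0.0234). It lost its call without vehicle replicate 1 (-0.36) or 3 (-0.35) or guadecitabine replicate 2 (-0.37) or 3 (-0.40). FZD1 fell by 1.11 (adjusted p = 7.66e-05) and FZD6 by 0.88 (adjusted p = 0.00387) on the log2 scale. The remaining 5 called receptor genes were FZD2, FZD7, FZD8, ROR1 and LGR4, with log2 fold changes from -0.81 to -0.42. FZD2 lost its call without vehicle replicate 2 (-0.36) or guadecitabine replicate 3 (-0.42), FZD7 without vehicle replicate 1 (-0.55) or guadecitabine replicate 3 (-0.61), and FZD8 with any library but guadecitabine replicate 2 left out (-0.61 to -0.39). Beside the 0 receptor genes called higher by edgeR, 2 were higher at an unadjusted p under 0.05, FZD4 and FZD9, and DESeq2 called 1 higher, FZD9. FZD9 had 0, 0 and 14.6 normalised counts in vehicle and 32.4, 52.9 and 33.3 in guadecitabine libraries, a log2 fold change of 2.87 (adjusted p = 0.0684 in edgeR). It was called with the replicate number as a block (3.82, adjusted p = 0.0399) and without vehicle replicate 3, at a fitted 8.16 that depends on the prior count since no other vehicle library had a read. FZD9 also passed the filter on low counts only through the guadecitabine libraries, so these calls are descriptions and no test.

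Inside the cell, 22 WNT pathway genes were fitted, 2 were higher and 3 lower, and the median log2 fold change was -0.04. These counts were 2 and 6 without vehicle replicate 3. BCL9L rose by 0.76 (adjusted p = 0.000494) and GSK3A, a kinase of the complex that marks beta-catenin for destruction, by 0.46 (adjusted p = 0.00652) on the log2 scale. CTNNBIP1, which keeps beta-catenin from TCF factors, fell by 1.16 (adjusted p = 9.76e-05), BCL9 by 0.69 (adjusted p = 0.000968) and TCF7L2 by 0.67 (adjusted p = 0.00252). CTNNB1, the gene of beta-catenin, had a log2 fold change of -0.32 and was not called (adjusted p = 0.0673), but passed the threshold without vehicle replicate 3 (-0.41) or guadecitabine replicate 1 (-0.40). It was also called lower by DESeq2 (-0.33, adjusted p = 0.0260) and with background subtracted from vehicle replicate 3 (-0.35, adjusted p = 0.0280).

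Among WNT target genes, 12 were fitted, 1 was higher and 4 were lower (SP5, BIRC5, CCND1 and ZNRF3), with a median log2 fold change of -0.32. Without vehicle replicate 3, 2 were higher and 4 lower. AXIN2, the most general target of beta-catenin and named for that role after its value was seen, had 109, 101 and 122 normalised counts in vehicle and 110, 108 and 145 in guadecitabine libraries. Its groups overlapped, and its log2 fold change of 0.13 ± 0.196 (SE) was not called (adjusted p = 0.646). With each library left out in turn it ran from -0.03 to 0.21. CCND1, encoding cyclin D1, fell by 0.72 (adjusted p = 0.000486) and BIRC5, encoding survivin, by 0.74 (adjusted p = 0.00152) on the log2 scale. CD44 rose by 1.18 (adjusted p = 2.66e-05). SP5 fell by 0.92 on few reads (adjusted p = 0.0417) and lost its call with any library but vehicle replicate 3 left out, with log2 fold changes from -1.05 to -0.76, and with the replicate number as a block (-0.91).

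Of the other BMP and activin antagonists, 10 were fitted, 3 were higher and 3 lower, and the median log2 fold change was 0.54. The counts were 4 and 3 without vehicle replicate 3. BMPER, a chordin-like modulator of BMPs, rose from 50.5, 64.4 and 141 to 366, 366 and 376 normalised counts, a log2 fold change of 2.09 ± 0.322 (SE, adjusted p = 0.00105) that was 2.69 without vehicle replicate 3. The follistatin-like genes FSTL3 and FSTL1 rose by 1.15 (adjusted p = 0.00736) and 0.92 (adjusted p = 0.000125). In contrast, CHRDL1, a chordin-like BMP antagonist, fell from 95.2, 122 and 120 to 21.0, 20.3 and 28.3 normalised counts, a log2 fold change of -2.26 ± 0.280 (SE, adjusted p = 0.000300). TWSG1 fell by 0.67 (adjusted p = 0.00468) and CRIM1 by 0.36 (adjusted p = 0.0225) on the log2 scale. CRIM1 lost its call without vehicle replicate 1 (-0.30) or guadecitabine replicate 3 (-0.34). BMP antagonists other than the 4 members thus moved in both directions.

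Genes of the list of BMP, GDF and activin ligands, not all of which these antagonists bind, also moved in both directions. Of 11 fitted genes, 2 were higher and 3 lower, with a median log2 fold change of 0.05. Without vehicle replicate 3, 1 was higher and 3 were lower, with a median of 0.23. BMP4, a ligand that gremlin and noggin bind, fell from 8073, 7729 and 6815 to 1903, 2164 and 1983 normalised counts, a log2 fold change of -1.90 ± 0.109 (SE, adjusted p = 3.12e-06). INHBA, encoding the beta A chain of activin, to which follistatin binds, rose from 28.6, 28.5 and 63.0 to 390, 362 and 314 normalised counts (log2 fold change 3.11 ± 0.290 SE, adjusted p = 5.94e-05). INHBB, encoding the beta B chain, fell by 1.69 on the log2 scale (adjusted p = 0.000157). For all 3 genes the groups did not overlap. GDF15 rose by 0.47 (adjusted p = 0.0286) and GDF5 fell by 0.56 (adjusted p = 0.0148). Neither kept its call under all omissions, GDF15 losing it with any library but guadecitabine replicate 1 left out (0.38 to 0.49) and GDF5 without vehicle replicate 1 (-0.52) or 2 (-0.51).

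Among BMP and activin receptors and co-receptors, 2 of 10 fitted genes were higher and 2 lower, with a median log2 fold change of 0.01, and 2 were higher and 1 lower without vehicle replicate 3. ENG, encoding the co-receptor endoglin, rose from 32.4, 23.2 and 79.2 to 802, 1096 and 857 normalised counts, a log2 fold change of 4.29 ± 0.350 (SE, adjusted p = 2.72e-05) that was 5.02 without vehicle replicate 3. The other calls were small. RGMB rose by 0.37 (adjusted p = 0.0312) and lost its call with any library but vehicle replicate 3 left out (0.29 to 0.44). BMPR2, the type II BMP receptor, fell by 0.35 (adjusted p = 0.0469) and lost its call without vehicle replicate 1 (-0.34) or 3 (-0.28) or guadecitabine replicate 2 (-0.28) or 3 (-0.38). NEO1 fell by 0.86 (adjusted p = 0.0247), by 0.57 without vehicle replicate 3, and was not called without guadecitabine replicate 1 (-0.80) or 3 (-0.82). Of the 13 SMAD genes and regulators, 3 were higher and 0 lower in edgeR, with a median log2 fold change of 0.00. DESeq2 also called 0 lower, and SMAD6 alone was lower at an unadjusted p under 0.05 in edgeR. SKIL rose by 1.04 (adjusted p = 0.00159), ZEB2 by 0.77 (adjusted p = 0.00669) and SMAD3, which carries activin rather than BMP signals, by 0.55 (adjusted p = 0.00220).

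Of 16 fitted BMP target genes, 5 were lower and 3 higher. Their median log2 fold change was -0.72 with all libraries and 0.11 without vehicle replicate 3, where 5 were lower and 5 higher, so that the median has no fixed direction. ID1, an inhibitor of helix-loop-helix factors and a direct target of BMP-activated SMADs, fell from 2759, 3179 and 2464 to 447, 665 and 574 normalised counts, a log2 fold change of -2.33 ± 0.165 (SE, adjusted p = 1.17e-05). ID3, named after its value was seen, fell from 1223, 1333 and 1115 to 279, 332 and 298 normalised counts, by 2.02 on the log2 scale (adjusted p = 3.81e-06). ATOH8 fell from 141, 130 and 140 to 25.1, 14.2 and 20.2 normalised counts, a log2 fold change of -2.73 (adjusted p = 6.91e-05). All 3 genes were lower in every treated library than in every vehicle library.

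The other BMP target genes moved in both directions or were not called. SMAD7 had a log2 fold change of 0.00 and was not called (adjusted p = 0.988), nor was SMAD6 at -1.22 (adjusted p = 0.0929, and -0.45 without vehicle replicate 3). MSX1 rose from 0.952, 0 and 25.4 to 116, 114 and 150 normalised counts, a log2 fold change of 3.71 ± 0.879 (SE, adjusted p = 0.00980). It was a fitted 7.65 without vehicle replicate 3, where 1 vehicle count remained, and 3.61 and not called without guadecitabine replicate 3. Like GREM1, MSX1 passed the filter on low counts only through the guadecitabine libraries, so its call is a description and no test. GATA2 and GATA3 rose by 1.03 (adjusted p = 0.000285) and 0.83 (adjusted p = 0.000512) on the log2 scale. ID4, at 24.8, 26.4 and 76.9 normalised counts in vehicle and 6.47, 12.2 and 4.04 in guadecitabine libraries, fell by 2.59 (adjusted p = 0.0160) and was not called without guadecitabine replicate 1 (-2.49) or 3 (-2.25). Without vehicle replicate 3, the highest vehicle library, ID4 was at -1.90. Its raw counts of 8, 6 and 4 in the guadecitabine libraries were under the minimum count of 10. ID4 thus passed the filter on low counts through the vehicle libraries, so its call is a description and no test. RUNX2 fell by 0.67 (adjusted p = 0.00222). Whether any of these changes follows from the antagonists was not tested.

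**Figure D5:**
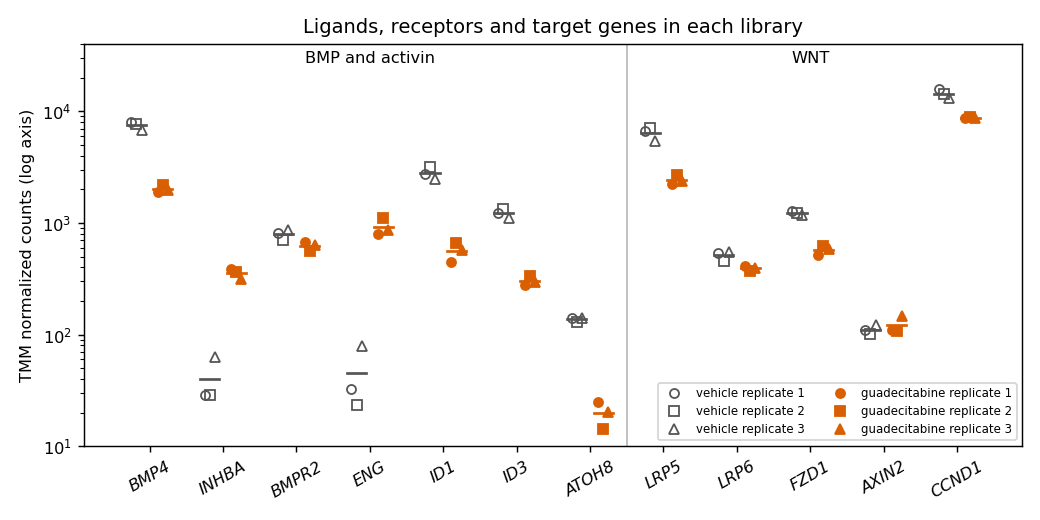
TMM normalised counts, on a log axis, of 12 ligand, receptor and target genes of both pathways in each library, with open symbols for vehicle, filled symbols for guadecitabine and bars for group means. BMP4, ID1, ID3, ATOH8, LRP5, FZD1 and CCND1 are lower and INHBA and ENG higher in every guadecitabine library, and AXIN2 overlaps between the groups. The genes were chosen for display after their values were seen.

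Markers of other cell types were read beside these results. The fibroblast list, 9 genes summed per kb, was at 200 to 321 in vehicle and 425 to 558 in guadecitabine libraries, and 1 of its 6 fitted genes was higher (COL1A1, log2 fold change 3.38, adjusted p = 3.34e-05) while 2 were lower, COL1A2 and PDGFRB. The other 3 fitted genes were not called. DCN had at most 4.07 normalised counts in the guadecitabine libraries and COL3A1 at most 10.2. These genes do not stand for the list, since only 1 of the 9 was at or under the floor of 3 counts in every guadecitabine library. The leukocyte list, of which 7 genes were in the table, summed to 1689 to 1930 in vehicle and 4060 to 4246 in guadecitabine libraries. CD68 alone of its 3 fitted genes was higher (log2 fold change 1.27), and PTPRC, the defining leukocyte gene, had at most 2.43 normalised counts in the guadecitabine libraries. Of the 7 genes, 2 were at or under the floor in every guadecitabine library.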

How the data were processed

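RNA sequencing of MDA-MB-231 cells gave 3 vehicle and 3 guadecitabine libraries, grouped by their labels. RNA was prepared with the TruSeq kit and sequenced on an Illumina instrument. The authors aligned reads to hg19 with STAR (version 2.3.1z in the submitters' processing notes) and deposited raw counts of exon reads per gene, made with iRNA-seq, with the exon length. Read length, strand and the handling of reads that match several places are not given in the sources used here. The deposited table also holds rlog values and the authors' own DESeq2 comparison (mean, fold change, error, statistic and p-values), none of which was used. No other per-sample column was present. Depth ranged from 8792127 to 22277442 counts per library, and the floor of 3 counts covers counting error only.

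Counts were fitted with edgeR 4.0.16 in R 4.3.3 across all genes (TMM, filterByExpr with a minimum count of 10, quasi-likelihood test, Benjamini-Hochberg adjustment over 13322 genes, threshold 0.05). Standard errors were derived from the F statistic, and the fit was tested on simulated counts. Levels per kb are normalised counts divided by exon length. No source says that libraries with the same replicate number share an experiment, so that number was not used in this fit. Alternatives were a replicate block, the Wald test and the size factors of DESeq2 1.42.0, library totals only, no filter, at least 10 counts in every library, a prior count of 2, a 2-fold threshold, background subtracted from vehicle replicate 3, silent genes defined by 0 counts, and each library left out in turn.

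The members and the pathway and marker lists were chosen with earlier results of these data known. All 10 members are named, and of each pathway list up to 3 risen and up to 3 fallen genes with an adjusted p under 0.05 and a mean count of at least 20. Any other pathway gene named, such as CTNNB1, SMAD7, RUNX2 or a gene with few reads, was chosen after its value was seen. Promoters came from the RefSeq table of GRCh38.p14, and their sequences were matched exactly to GRCh37 around each gene with Python 3.11.15. Overlapping genes came from GENCODE release 44 on GRCh37. Protein sequences were not used here.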

Additional observations from a re-analysis of the deposited data

How the results depend on the processing

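Deviations from the group means correlated at -0.0124 on average for the same replicate number and at 0.00768 for different numbers. With 3 libraries per group these deviations depend on one another, so they cannot decide whether same-numbered libraries share an experiment. With the replicate number as a block, 2424 genes were higher and 2230 lower, and among the members only FST left the threshold (0.31). Of the other named genes SP5 and DUSP3 left it and FZD9 passed it under the block, which changed no other call of a named gene. FST also did so with no filter (0.33). A 2-fold threshold left 886 genes higher and 747 lower. With single libraries left out, genes higher ran from 1706 to 3002 and genes lower from 1629 to 2575, with both lowest counts without guadecitabine replicate 3. Members called lower ran from 0 to 1, the log2 fold change of NOG from -0.68 to -0.48 and that of FST from 0.28 to 0.35. The ranges of SOST (6.31 to 6.47), SFRP1 (2.19 to 3.57), DKK3 (3.38 to 4.27) and GREM1 (6.42 to 13.26) are given as descriptions. Those of NOG and FST are too, since all members were chosen from the same contrast. GREM1 had no value with at least 10 counts in every library. Library totals in place of TMM moved the median of all genes to 0.05, and no filter moved it to -0.11. No called member or named gene turned its direction. The median of the BMP target genes did (-0.72, and 0.11 without vehicle replicate 3), and the log2 fold changes of DKK1, AXIN2, WNT7B, WNT5B and SMAD7, which were not called, took both signs. Of the comparisons of 69 named genes that are no members, 885 kept their side of the threshold, 67 lost it and 9 gained it. The median background of vehicle replicate 3 was 7.72 counts per kb over genes with 0 counts in vehicle replicates 1 and 2. SFRP2, WIF1 and CHRD were not fitted, and p-values measure the spread between 3 libraries of 1 cell line.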
